A study of Mus musculus with 24 samples.

Results

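The genes described here are 10 members of the NF-kB pathway, chosen by name for their place in it. Earlier results of these data were known when they were chosen. They are the transcription factor subunits Nfkb1, Nfkb2, Rela and Relb, the inhibitors Nfkbia, Nfkbie, Nfkbiz and Tnfaip3, and the adhesion molecules Icam1 and Vcam1. Nfkbiz is listed with the inhibitors as an IkB protein, without a claim that it inhibits. All 10 were found, among 35687 gene rows in the table of monolayers and spheroids and 35688 rows in each of the Snail and BRCA1 tables. The RNA came from cell lines of the mouse ovarian surface epithelium (mOSE), the cell sheet around the ovary, and the 24 libraries formed 8 groups of 3. In the line m1102, cells grew attached as monolayers or in low-attachment plates as spheroids, each untreated or given the cytokine TGFB1 at 10 ng/mL, which the spheroid cells received for 4 days before they left the plastic; for monolayers the duration is not stated. In the same line, cells carrying the empty vector WPI were compared with cells that overexpress Snail, a transcriptional repressor encoded by Snai1. A further line, mOSE_BRCA1_fl, carries floxed Brca1, and its cells received adenovirus with GFP (BRCA1 wt) or with Cre recombinase (BRCA1 ko). Every group was kept in medium with serum, insulin-transferrin supplement and EGF. Nothing in the labels says that the libraries of a group came from separate cultures, so each p-value reflects the spread among libraries alone, which may be technical.

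NF-kB factors are dimers of Rel proteins that are held in the cytoplasm by inhibitors of the IkB family until a kinase complex marks the inhibitor for destruction. The precursors encoded by Nfkb1 and Nfkb2 are cut to DNA-binding subunits without an activation domain of their own, while RelA and RelB carry one; RelA serves the classical branch, and RelB paired with the Nfkb2 product serves the non-canonical branch. Nfkbia (IkB-alpha), Nfkbie (IkB-epsilon) and Tnfaip3, a ubiquitin-editing enzyme, are induced by NF-kB and dampen it, and Nfkbiz (IkB-zeta) is a nuclear IkB protein that modulates transcription. Icam1 and Vcam1 are cell-surface ligands of leukocyte integrins and textbook targets of the pathway, and Vcam1 is also carried by mesothelial cells.

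All 10 are annotated as protein-coding on build GRCm38. The subunit genes span chr3:135584655-135691547 (Nfkb1, minus strand), chr19:46304320-46312385 (Nfkb2, plus strand), chr19:5637483-5648130 (Rela, plus strand) and chr7:19606217-19629438 (Relb, minus strand). The inhibitor genes span chr12:55489410-55492647 (Nfkbia, minus strand), chr17:45555703-45563169 (Nfkbie, plus strand), chr16:55811375-55838899 (Nfkbiz, minus strand) and chr10:19000910-19015657 (Tnfaip3, minus strand). The adhesion genes span chr9:21015985-21028817 (Icam1, plus strand) and chr3:116109949-116129688 (Vcam1, minus strand).

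The stretches of 250 bases before the annotated transcription start are shown for 5 members because motifs of this kind are how the factor is known to bind its inhibitor and target genes. They were taken from RefSeq on build GRCm38.p6 and run 5′ to 3′ on the gene's own strand. RefSeq starts can differ from the ends of the gene spans given above. The Nfkb2 stretch lies within the span of its gene, as does nearly all of the Tnfaip3 stretch. Capitals mark matches, on either strand and with overlaps merged, to the kappaB consensus motif or to the looser GGNNNTTCC. The Nfkb2 stretch lies at chr19:46304487-46304736 on the plus strand, the Nfkbia stretch at chr12:55492648-55492897 on the minus strand, the Tnfaip3 stretch at chr10:19015411-19015660 on the minus strand, the Nfkbie stretch at chr17:45555450-45555699 on the plus strand and the Icam1 stretch at chr9:21015690-21015939 on the plus strand.
Nfkb2: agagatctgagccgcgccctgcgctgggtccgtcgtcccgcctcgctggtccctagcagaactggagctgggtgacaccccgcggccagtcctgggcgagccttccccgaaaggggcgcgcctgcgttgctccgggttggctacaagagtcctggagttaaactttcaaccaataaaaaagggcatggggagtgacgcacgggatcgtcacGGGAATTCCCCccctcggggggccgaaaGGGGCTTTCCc
Nfkbia: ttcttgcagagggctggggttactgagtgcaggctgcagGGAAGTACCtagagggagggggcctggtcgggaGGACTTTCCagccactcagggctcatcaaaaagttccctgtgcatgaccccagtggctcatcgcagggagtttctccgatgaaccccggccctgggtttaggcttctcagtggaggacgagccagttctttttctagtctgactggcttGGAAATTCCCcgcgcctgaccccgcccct
Tnfaip3: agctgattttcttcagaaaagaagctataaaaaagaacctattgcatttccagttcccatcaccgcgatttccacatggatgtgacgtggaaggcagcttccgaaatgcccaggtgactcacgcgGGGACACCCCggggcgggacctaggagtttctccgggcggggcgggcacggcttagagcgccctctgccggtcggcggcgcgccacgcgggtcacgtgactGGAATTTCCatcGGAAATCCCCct
Nfkbie: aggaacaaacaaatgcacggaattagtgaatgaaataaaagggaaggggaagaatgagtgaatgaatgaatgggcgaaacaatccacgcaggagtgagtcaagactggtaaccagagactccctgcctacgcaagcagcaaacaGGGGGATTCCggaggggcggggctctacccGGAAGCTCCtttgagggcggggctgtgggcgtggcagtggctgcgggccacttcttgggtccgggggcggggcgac
Icam1: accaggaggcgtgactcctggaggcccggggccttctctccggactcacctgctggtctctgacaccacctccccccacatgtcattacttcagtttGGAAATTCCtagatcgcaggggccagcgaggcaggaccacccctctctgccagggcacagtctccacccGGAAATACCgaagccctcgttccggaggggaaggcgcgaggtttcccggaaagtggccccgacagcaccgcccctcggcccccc

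Entries in the promoter table were found for 6 of the 10 members, in 9 windows because Nfkb2 and Tnfaip3 have several starts. These windows run 300 bases, from 250 before the start to 50 after it. The kappaB consensus motif occurred in 8.46% of all 32851 mouse promoter windows of that length and GGNNNTTCC in 18.5%. These are shares of windows with any match. The Nfkb2 window whose upstream part is shown held 3 positions that match the consensus, 2 of them overlapping within GGGAATTCCCC. The Tnfaip3 window whose upstream part is shown held 2, and those of Nfkbia and Nfkbie held 1 each. The other Nfkb2 windows held 2 and 1 such positions, and the other Tnfaip3 window held 0. Those other Nfkb2 windows overlap, and the same GGGACTTTCC was counted in both. The Icam1 window held no consensus match and 2 positions that match GGNNNTTCC, and the Rela window held neither. A match is a description of the letters and says nothing about binding in these cells.

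Levels are given in scaled TPM, the authors' per-length and per-library normalised abundance, listed for replicates 1, 2 and 3 in turn. Differences are log2 fold changes of the level plus 1, with the standard error (SE), and a gene was called when its limma p-value, adjusted over all tested genes, was under 0.05. Depth cannot be read from this unit. The 3 tables were normalised separately, so levels were tested only within a table. In the first experiment the word re-analysed stands in the title of each monolayer library and of no spheroid, so growth form and data origin cannot be told apart. The descriptions of untreated monolayers 1 and 2 name one and the same earlier sample, although across genes their correlation (r = 0.9915) was no closer than that of the other pairs in the group. Mitochondrial transcripts made up 7.24, 13.9 and 12.1% of the level in the TGFB1 spheroids, against 6.60 to 8.68% in the other 9 libraries of that table. Among the BRCA1 wt libraries, number 2 correlated with numbers 1 and 3 at r = 0.917 and 0.866, whereas all other replicate pairs of the series reached at least 0.9635. Snai1 checked the Snail labels, at 13.7, 10.1 and 9.81 in the WPI libraries and 234, 195 and 193 in the Snail libraries. Brca1 did not separate the other experiment, at 4.27, 12.3 and 3.66 in BRCA1 wt and 5.34, 11.1 and 4.09 in the libraries labelled BRCA1 ko; a level summed over the whole gene does not measure the floxed part alone, so the deletion is taken from the label.

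Defining markers placed the cells only in part. Wt1, Msln and Upk3b, markers of the ovarian surface and mesothelium, were present in monolayers. Upk3b stood at 245 to 294 in untreated monolayers and at 3.36 to 4.64 in untreated spheroids, and the summed level of all 14 listed markers of this class went from 2272 to 2402 down to 333 to 542. Krt8, an epithelial keratin, was at 0 to 0.41 in all 12 of these libraries but at 58.0 to 255 in the BRCA1 experiment. Other keratins of the list were present in these 12 libraries, Krt18 at 81.3 to 323 and Krt7 at 0.94 to 362. Lhx9 and Krt19, from the same list, stayed at or below 0.249 and 1.96 in these 12 libraries. The 9 ovarian stroma and fibroblast markers summed to 1903 to 2040 in untreated monolayers and 708 to 845 in untreated spheroids. Of these, Dcn stood at 232 to 1440 over the 12 libraries. The 14 leukocyte markers summed to 18.5 to 18.7 in TGFB1 monolayers, 28.8 to 39.4 in untreated monolayers, 38.9 to 94.1 in TGFB1 spheroids and 42.9 to 115 in untreated spheroids. Cd68 and Cd14 made up most of that sum, while the pan-leukocyte gene Ptprc stayed at or below 0.124 and the macrophage gene Adgre1 at or below 0.0187. The 11 endothelial markers summed to 4.09 to 5.54 in untreated monolayers and 32.3 to 56.7 in TGFB1 spheroids. In the latter Cdh5 alone gave 23.9 to 51.3, Pecam1 gave 0.996 to 1.95 and Cldn5 was listed at 0. In the separately normalised BRCA1 experiment these markers summed to 67.5 to 73.6 in BRCA1 wt and 62.2 to 74.9 in BRCA1 ko. There Esam gave 41.4 to 64.7. The part of these markers in the results that follow was not tested. In bulk RNA, fewer cells of a type and less RNA per cell cannot be told apart.

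The first comparison asked how the pathway differs between attached cells and spheroids without added cytokine. In untreated spheroids, 3 of 4 subunit genes and 3 of 4 inhibitor genes were higher than in untreated monolayers, and Vcam1 was lower. Relb stood at 15.2, 15.1 and 13.9 in the monolayers and at 39.9, 41.2 and 41.2 in the spheroids. Rela stood at 41.8, 44.5 and 43.5 against 81.7, 83.3 and 77.2. Nfkb2 stood at 27.0, 28.0 and 29.1 against 54.6, 51.1 and 45.3. For these 3 genes every spheroid library was above every monolayer library, and groups were apart for 7 of the 9 tested members against 65.3% of all tested genes. The log2 differences were 1.41 (SE 0.14, adjusted p = 1.47e-05) for Relb, 0.88 (SE 0.07, adjusted p = 3.42e-06) for Rela and 0.82 (SE 0.09, adjusted p = 1.76e-05) for Nfkb2. Nfkb1, the precursor of the classical DNA-binding partner, was at 42.1, 46.5 and 44.5 in monolayers and 41.9, 40.2 and 51.7 in spheroids, so its groups overlapped; the 95% interval of its log2 difference ran from -0.21 to 0.21 (adjusted p = 1).

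Among the inhibitors, Nfkbia was at 33.0, 32.7 and 33.9 in the monolayers and at 89.7, 95.4 and 83.4 in the spheroids, a log2 difference of 1.4 (SE 0.20, adjusted p = 0.000187). Tnfaip3 was close to the detection filter in the monolayers, at 1.05, 1.05 and 1.12, and reached 7.60, 8.12 and 7.67 in the spheroids (2.08, SE 0.44, adjusted p = 0.00223). Nfkbie went from 1.99, 2.93 and 2.46 to 5.14, 4.28 and 4.87 (0.74, SE 0.13, adjusted p = 0.000685). Spheroid libraries lay above all monolayer libraries for these 3 inhibitors. Nfkbiz overlapped between the groups, with 10.4, 9.74 and 10.2 against 13.0, 15.7 and 10.3, and was not called (adjusted p = 0.231). Vcam1 moved the other way, from 248, 234 and 275 to 99.5, 97.6 and 121 (-1.24, SE 0.24, adjusted p = 0.00125). In all, 7 of the 9 tested members were called, 6 higher and 1 lower, where 55.2% of all 13509 tested genes were called, 27.6% as higher and 27.7% as lower. The median log2 difference was 0.82 over the 9 tested members and 0.01 over all genes, and all 7 calls held without any single library and under all 8 other settings tried.

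**Figure D1:**
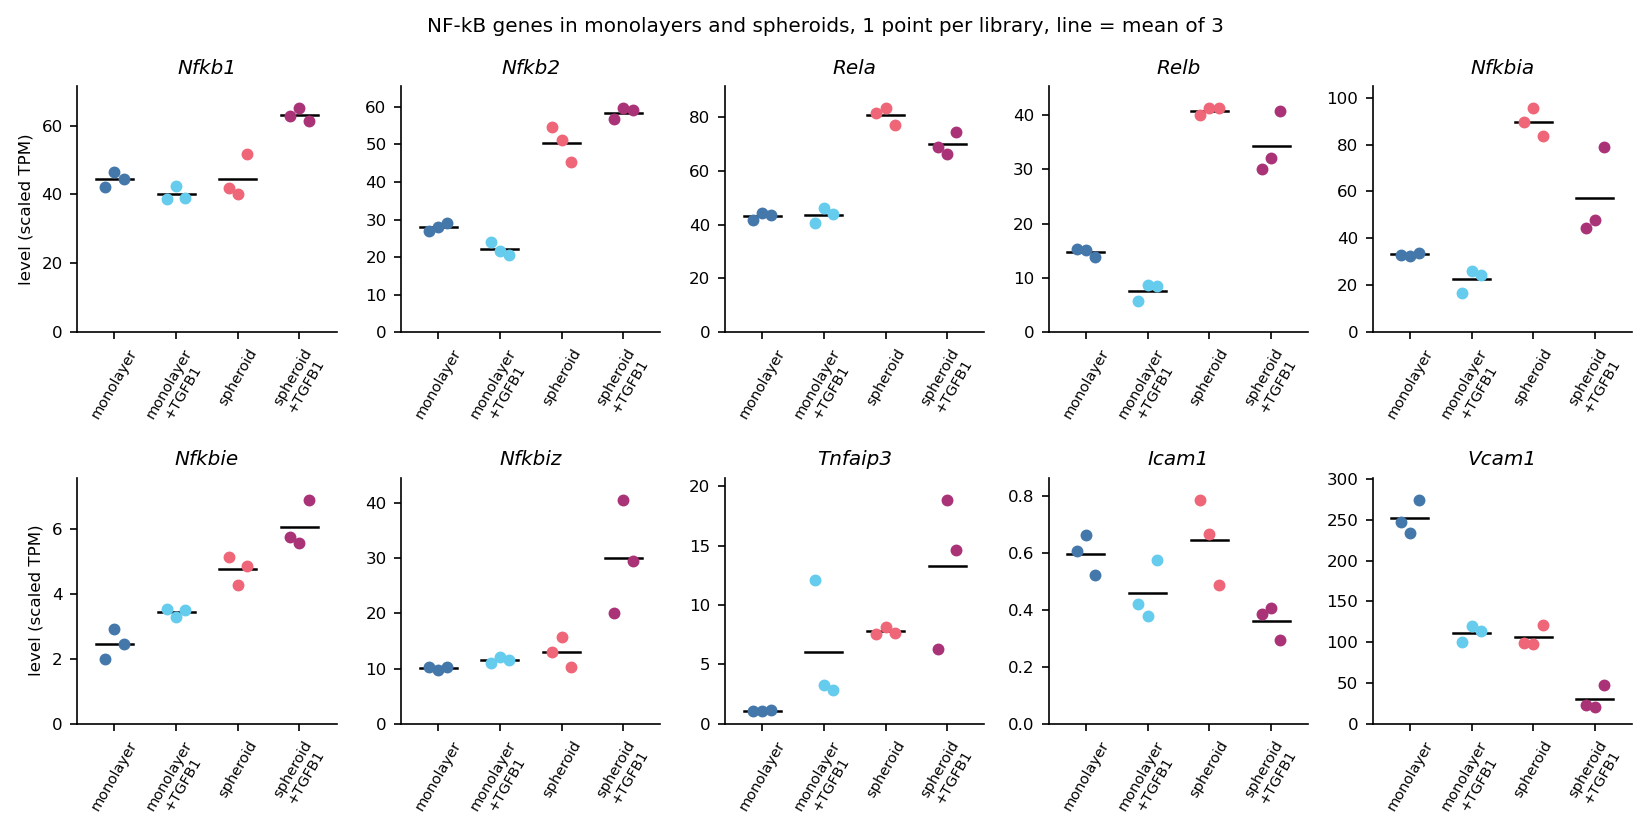
Levels of the 10 genes (y axis, scaled TPM from 0, a separate scale per gene) in the 4 groups of the monolayer and spheroid experiment, with 1 point per library and a line at the mean of 3. Relb, Rela, Nfkb2 and Nfkbia sit higher in both spheroid groups than in either monolayer group, Nfkb1 and Nfkbiz stand out in the TGFB1 spheroids, and Vcam1 falls from 234 to 275 in untreated monolayers to 20.8 to 47.0 in TGFB1 spheroids.

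The same growth comparison within TGFB1-treated cells set 6 other libraries against each other. Its SE and p-values drew on the spread over all 12 libraries of the fit. The monolayers were again the re-analysed libraries, so it is not an independent repeat. All 4 subunit genes were higher in TGFB1 spheroids than in TGFB1 monolayers, and their library values did not overlap. Groups were apart for 8 of 9 tested members and 59.4% of all tested genes. Relb went from 5.80, 8.63 and 8.45 to 30.0, 32.0 and 40.8 (2.04, SE 0.14, adjusted p = 9.14e-07). Nfkb2 went from 24.1, 21.5 and 20.6 to 56.7, 59.6 and 59.1 (1.37, SE 0.09, adjusted p = 3.80e-07). Nfkb1, flat in the untreated pair, went from 38.7, 42.4 and 39.0 to 62.9, 65.0 and 61.3 (0.64, SE 0.09, adjusted p = 0.000187). Rela went from 40.5, 46.4 and 44.0 to 68.9, 66.4 and 74.3 (0.67, SE 0.07, adjusted p = 2.43e-05).

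Nfkbia rose from 16.7, 26.3 and 24.5 to 44.6, 47.8 and 79.1 between the TGFB1 groups, a log2 difference of 1.28 (SE 0.20, adjusted p = 0.000362). Nfkbiz rose from 10.95, 12.2 and 11.6 to 20.04, 40.6 and 29.5 (1.25, SE 0.21, adjusted p = 0.000533). Nfkbie rose from 3.54, 3.30 and 3.5 to 5.78, 5.58 and 6.91 (0.67, SE 0.13, adjusted p = 0.00145). Every TGFB1 spheroid exceeded every TGFB1 monolayer for these inhibitors. Tnfaip3 did not separate the groups: TGFB1 monolayers gave 12.1, 3.24 and 2.81, and TGFB1 spheroids gave 6.26, 18.9 and 14.7 (1.14, SE 0.44, adjusted p = 0.051). Without TGFB1 monolayer 1, the only high library in its group, the Tnfaip3 difference was 1.71 (adjusted p = 0.002), and without TGFB1 spheroid 1 it was 1.57 (adjusted p = 0.0112). Tnfaip3 was called in only these 2 of the 12 fits that left out a library, and the adjusted p reached 0.182. Vcam1 fell from 99.8, 120 and 113 to 22.6, 20.8 and 47.0 (-1.94, SE 0.24, adjusted p = 6.24e-05). The count was 8 of 9 tested members, 7 higher and 1 lower, against 51.9% of all tested genes (25.3% higher, 26.5% lower).

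TGFB1 in monolayers gave a different picture, in which the subunit genes that were called were lower. These values share the untreated monolayers with the first comparison. Relb was lower in all 3 TGFB1 monolayers than in any untreated one (-0.88, SE 0.14, adjusted p = 0.00265), as was Vcam1 (-1.17, SE 0.24, adjusted p = 0.00816). Nfkb2 was lower by less (-0.33, SE 0.09, adjusted p = 0.0228). Its call was lost without untreated monolayer 2 or 3 or TGFB1 monolayer 2 or 3, with adjusted p from 0.0672 to 0.0895. Tnfaip3 was higher (1.52, SE 0.44, adjusted p = 0.039), yet 1 library, TGFB1 monolayer 1, held the highest value by far. Without that library the Tnfaip3 difference was 0.96 (adjusted p = 0.107), and the call was also lost without untreated monolayer 1, 2 or 3 or untreated spheroid 1 or 2 (adjusted p from 0.0538 to 0.102).

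Groups were apart for 7 of 9 tested members and 47.5% of all tested genes. Nfkbia and Nfkbie were among these but were not called, with log2 differences of -0.57 (adjusted p = 0.0851) and 0.37 (adjusted p = 0.0804). Nfkb1 and Rela differed by -0.15 and 0.01, with 95% intervals from -0.35 to 0.06 and from -0.15 to 0.17. In this comparison 4 of 9 tested members were called, 1 higher and 3 lower, against 16.9% of all tested genes (9.12% higher, 7.79% lower). The calls of Relb and Vcam1 were the 2 that held without any single library and under every other setting.

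In the spheroid comparison the cells had met TGFB1 before they were detached. Nfkb1 was higher in every TGFB1 spheroid than in any untreated one (0.50, SE 0.09, adjusted p = 0.00228), and so was Nfkbiz (1.11, SE 0.21, adjusted p = 0.0024). Groups were apart for 7 of 9 tested members and 43.9% of all tested genes. Vcam1 was lower, from 99.5, 97.6 and 121 to 22.6, 20.8 and 47.0 (-1.87, SE 0.24, adjusted p = 0.000274). These 3 calls held without any single library and under every other setting. Nfkbia was lower (-0.68, SE 0.20, adjusted p = 0.0242), a call lost without untreated spheroid 1 or 2 or TGFB1 spheroid 1 or 2 (adjusted p from 0.06 to 0.0936). Rela was lower by a small amount (-0.21, SE 0.07, adjusted p = 0.0482), a call lost on leaving out 9 of the 12 libraries in turn, with adjusted p up to 0.152. Nfkb2 (0.22, adjusted p = 0.071), Nfkbie (0.30, adjusted p = 0.102), Relb (-0.26, adjusted p = 0.191) and Tnfaip3 (0.58, adjusted p = 0.336) were not called. The count was 5 of 9 tested members, 2 higher and 3 lower, where 35.6% of all tested genes were called (18.8% higher, 16.8% lower).

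The test of the difference between the TGFB1 effects in spheroids and in monolayers called 2 of 9 tested members, both subunits and both higher, against 15.8% of all tested genes (8.72% higher, 7.11% lower). For Nfkb1 the difference was 0.64 (SE 0.13, adjusted p = 0.00858) and for Nfkb2 it was 0.55 (SE 0.12, adjusted p = 0.0121). Both calls were lost when each library was rescaled to the same sum (0.42, adjusted p = 0.0568, and 0.33, adjusted p = 0.0847), a rescaling that moved the median of all genes in this contrast to -0.21. Nfkbiz (0.94, adjusted p = 0.0565), Relb (0.63, adjusted p = 0.0594) and Vcam1 (-0.70, adjusted p = 0.197) were not called with all libraries. Without TGFB1 spheroid 3, the library with the highest Vcam1 of its group, the Vcam1 difference was -1.06 (adjusted p = 0.00168). Without TGFB1 spheroid 1 the difference was 1.19 for Nfkbiz (adjusted p = 0.00641) and 0.71 for Relb (adjusted p = 0.041), so that both were called. Nfkbiz, Relb and Vcam1 were each called in only 1 of the 12 fits that left out a library. Over those fits the adjusted p reached 0.11 for Nfkbiz, 0.12 for Relb and 0.386 for Vcam1.

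**Figure D2:**
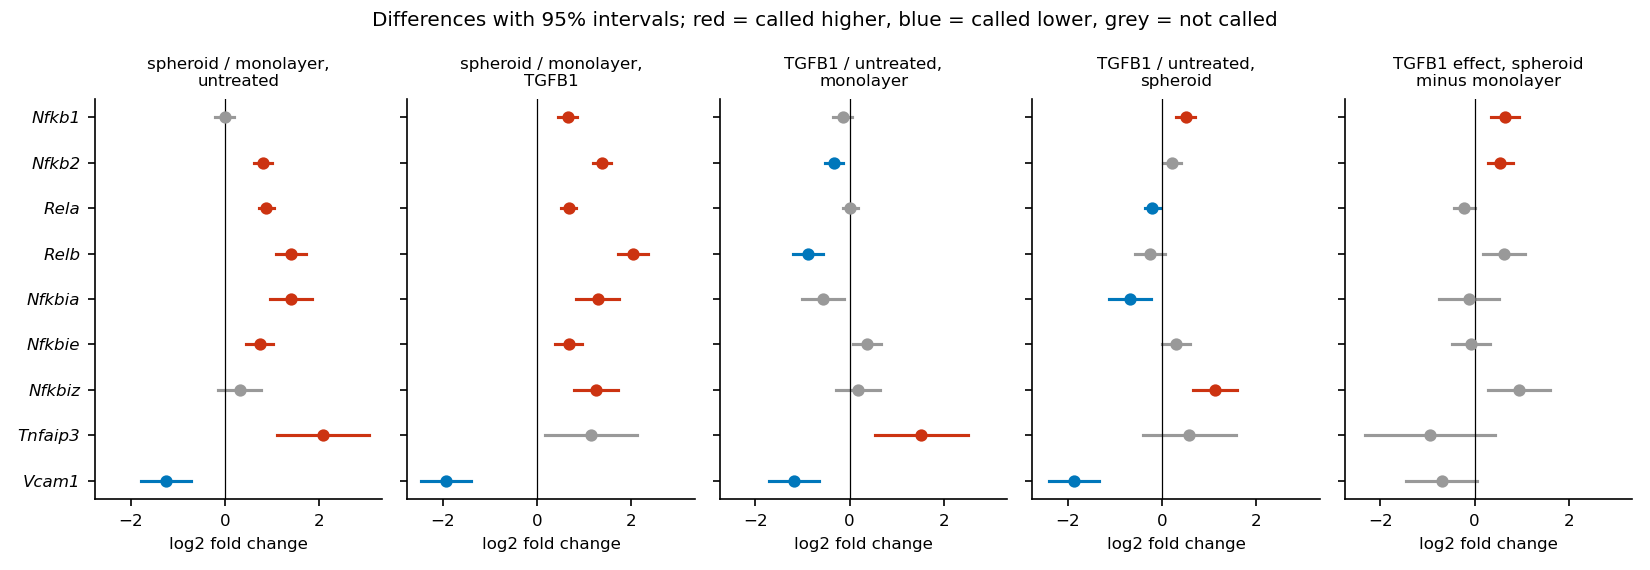
Log2 fold changes (x axis, points) with 95% intervals (bars) for the 9 tested genes in the 5 contrasts of the monolayer and spheroid experiment; red marks genes called higher, blue genes called lower and grey genes not called. Vcam1 lies below 0 in all 5 panels and is grey in the last, while Relb lies above 0 in both growth comparisons and below 0 in monolayers given TGFB1.

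Ordered by level within this experiment, Vcam1 ran from TGFB1 spheroids (30.1 ± 14.7, SD, n = 3) through untreated spheroids (106 ± 13.2, SD, n = 3) and TGFB1 monolayers (111 ± 10.5, SD, n = 3) to untreated monolayers (252 ± 20.7, SD, n = 3), and the middle pair overlapped. Relb ran from TGFB1 monolayers (7.63 ± 1.59, SD, n = 3) through untreated monolayers (14.7 ± 0.75, SD, n = 3) to TGFB1 spheroids (34.3 ± 5.73, SD, n = 3) and untreated spheroids (40.8 ± 0.75, SD, n = 3), with overlap only between the last 2 groups. Nfkbia had the same order, with all neighbours apart, from 22.5 ± 5.08 (SD, n = 3) to 89.5 ± 5.99 (SD, n = 3). Nfkb2 did not overlap between any neighbouring groups and was highest in TGFB1 spheroids, at 58.5 ± 1.53 (SD, n = 3). Nfkb1 was apart from its neighbours only in TGFB1 spheroids, at 63.1 ± 1.82 (SD, n = 3).

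Icam1 was barely detected in the m1102 line. Its level was 0.61, 0.66 and 0.52 in untreated monolayers, 0.42, 0.38 and 0.58 in TGFB1 monolayers, 0.79, 0.67 and 0.49 in untreated spheroids and 0.38, 0.41 and 0.30 in TGFB1 spheroids. No library reached 1, so the gene failed the filter and was not tested with the others. In a fit without the filter its log2 difference in spheroids given TGFB1 was -0.27 (adjusted p = 0.0499), and the adjusted p in the other contrasts of this experiment ran from 0.451 to 0.798. The authors' deposited table gave Icam1 a q-value of 0.0119 for 3 terms tested at once.

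Beside the members, 4 lists of pathway genes were read from the same fit. Their counts in untreated spheroids stand against 27.6% of all tested genes higher and 27.7% lower. Of 26 tested kinases, adaptors and other regulators, 10 were higher and 5 lower in untreated spheroids than in untreated monolayers (median log2 difference 0.16). Counted in either direction, the share was near the 55.2% of all tested genes, with more of the calls higher. Birc3, a ubiquitin ligase of receptor complexes, went from 10.3 ± 1.59 to 45.6 ± 7.10 (SD, n = 3; adjusted p = 1.57e-05). Ikbkg, the regulatory subunit of the IkB kinase, went from 22.4 ± 3.39 to 75.4 ± 4.37 (SD, n = 3; adjusted p = 1.03e-05), and Tnip2, a partner of the Tnfaip3 protein, from 12.4 ± 1.42 to 35.01 ± 1.94 (SD, n = 3; adjusted p = 8.92e-06). Of 20 tested target genes outside the members, 10 were higher and 4 lower, with a median of 1.0. Those named by size were secreted proteins: the chemokines Ccl2, from 36.6 ± 2.17 to 329 ± 11.6 (SD, n = 3; adjusted p = 2.29e-05), and Ccl7, from 8.83 ± 0.57 to 110 ± 28.1 (SD, n = 3; adjusted p = 1.10e-05), Cxcl1 with a log2 difference of 3.16 and the lipocalin Lcn2 with 2.93.

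Of 20 tested activating ligands and receptors, 4 were higher and 4 lower in untreated spheroids (median 0.12), again against 27.6% and 27.7% of all tested genes. The interleukin 1 receptor antagonist Il1rn was higher (3.21, SE 0.70, adjusted p = 0.00252), and the cytokine Il18 was lower, from 134 ± 6.94 to 15.9 ± 8.61 (SD, n = 3; adjusted p = 4.27e-06). The cytokine gene Il1b was listed at 0 in all untreated libraries of this experiment. Of 12 tested relatives and integrin partners of the adhesion molecules, 5 were higher and 5 lower (median 0.18). Alcam, an immunoglobulin-type adhesion molecule like Vcam1, went from 9.56 ± 0.29 to 94.7 ± 15 (SD, n = 3; adjusted p = 4.58e-07), and Mcam, another, from 21.8 ± 2.76 to 1.1 ± 0.13 (SD, n = 3; adjusted p = 8.49e-07).

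Between TGFB1 monolayers and TGFB1 spheroids, 8 of the 26 regulators were higher and 5 lower, 10 of the 20 ligands and receptors were higher and 4 lower, and 13 of the 20 targets were higher and 3 lower, where 25.3% of all tested genes were higher and 26.5% lower. Their median log2 differences were 0.04, 0.47 and 1.58. Of the adhesion relatives, 4 were higher and 4 lower.

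With TGFB1 in monolayers 2 of 26 regulators were higher and 1 lower (median 0.06), where 9.12% of all tested genes were higher and 7.79% lower. The lower one was the nuclear IkB protein gene Bcl3, from 136 ± 4.09 to 71.1 ± 29.0 (SD, n = 3; adjusted p = 0.0317). Map3k14, the kinase that starts the non-canonical branch, went from 4.90 ± 0.21 to 10.0 ± 3.27 (SD, n = 3; adjusted p = 0.0113), and Traf3, the adaptor that keeps this kinase low, from 16 ± 0.72 to 25.4 ± 2.42 (SD, n = 3; adjusted p = 0.00199). Of the ligands and receptors 3 were higher and 4 lower, among the latter the TNF receptor Tnfrsf1a, from 234 ± 2.05 to 127 ± 25.9 (SD, n = 3; adjusted p = 0.0032). Of the targets 2 were higher and 4 lower. Ptgs2, a prostaglandin synthase, was higher, from 110 ± 6.90 to 523 ± 210 (SD, n = 3; adjusted p = 0.00125), and the complement gene C3 lower, from 49.8 ± 10.7 to 7.23 ± 3.00 (SD, n = 3; adjusted p = 0.00802). Of the adhesion relatives 5 were higher and 0 lower, led by Mcam (2.40, SE 0.23, adjusted p = 0.000152), the opposite direction to Vcam1.

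With TGFB1 in spheroids, where 18.8% of all tested genes were higher and 16.8% lower, 2 of 26 regulators were higher and 6 lower, including Ikbkg (-1.05, SE 0.17, adjusted p = 0.000896) and Birc3 (-1.04, SE 0.21, adjusted p = 0.00338). Ligands and receptors were higher for 7 of 20 and lower for 4. The receptor gene Cd40 went from 0.64 ± 0.46 to 40.4 ± 19.6 (SD, n = 3; adjusted p = 3.85e-05), and the cytokine Il1a from 1.51 ± 0.87 to 60.7 ± 47.5 (SD, n = 3; adjusted p = 0.000731). Il1rap, the shared chain of interleukin 1 receptors, went from 8.06 ± 1.2 to 48.9 ± 18.4 (SD, n = 3; adjusted p = 1.69e-05). All 3 were also called in the test of the difference between spheroids and monolayers (adjusted p = 0.00229 for Cd40, 0.00994 for Il1a and 0.000918 for Il1rap), where 7 of the 20 ligands and receptors were higher and 0 lower, against 8.72% and 7.11% of all tested genes. Of the targets 4 were higher and 3 lower: Lcn2 went from 8.0 ± 1.85 to 303 ± 216 (SD, n = 3; adjusted p = 0.000168) and Il6 from 2.68 ± 2.09 to 36.5 ± 10.7 (SD, n = 3; adjusted p = 0.00175), whereas Ccl2 went from 329 ± 11.6 to 118 ± 82.6 (SD, n = 3; adjusted p = 0.00338). Among the adhesion relatives 6 were higher and 1 lower, with Alcam at 393 ± 115 (SD, n = 3).

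**Figure D3:**
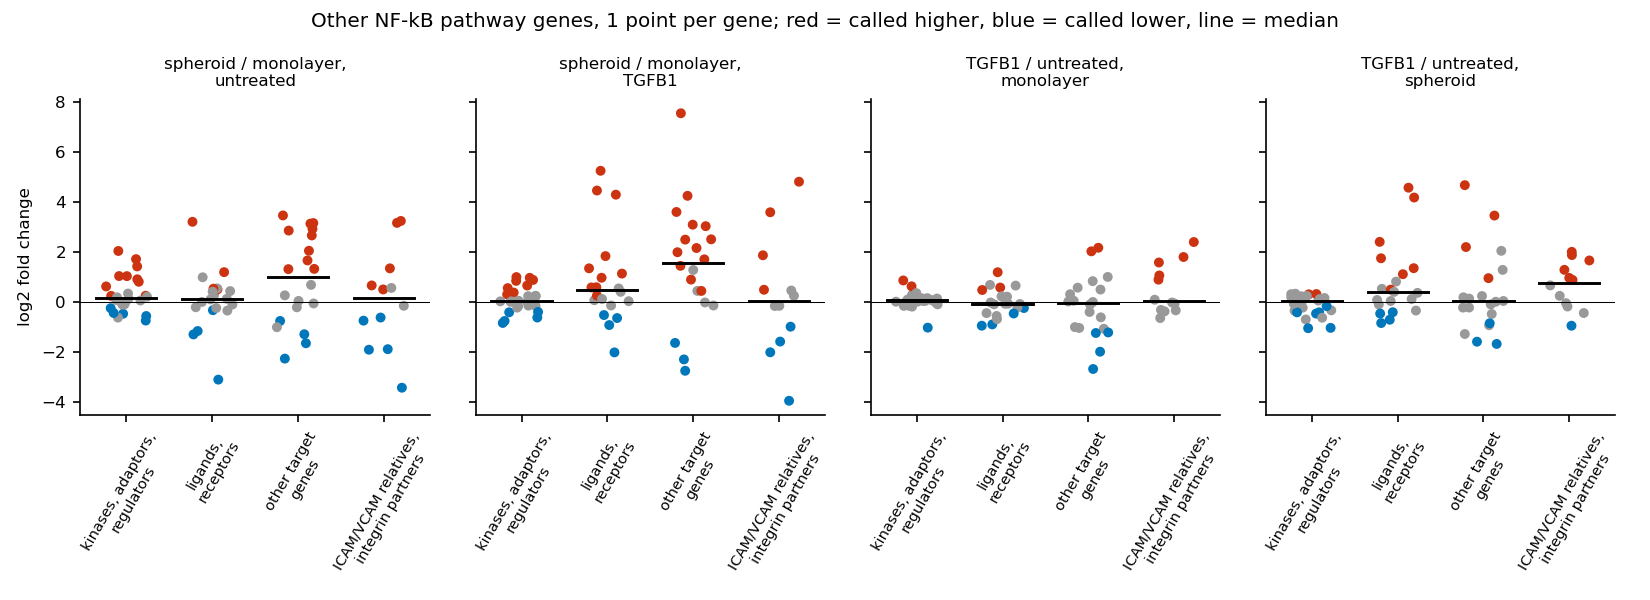
Log2 fold changes (y axis) of the tested genes of 4 pathway lists in 4 comparisons, with 1 point per gene, a line at each list's median, red for genes called higher and blue for genes called lower. The target list has the highest median in both growth comparisons, at 1.0 and 1.58, and lies near 0 in both TGFB1 comparisons.

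Genes whose pattern over the 12 libraries was most like that of a member were ranked by the root mean square difference of centred log2 levels, a description without a test. For Vcam1 these were Plpp1 (0.24), Irf1 (0.29) and Rcan2 (0.30). Irf1, an interferon regulatory factor in the target list, averaged 86.3 in untreated monolayers, 37.4 in TGFB1 monolayers, 35.1 in untreated spheroids and 11.5 in TGFB1 spheroids. For Nfkbia the nearest were Gstp-ps (0.20), a pseudogene on 2 rows that may share reads with its parent gene, and Ifi203 (0.20). For Icam1 they were Ylpm1, Spg11 and Cdip1 (0.08 to 0.09), which are nearly flat on this scale, as Icam1 is.

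With Snail overexpressed, no member passed the test. Of 9 tested members 0 were called by limma, 1 had an unadjusted p under 0.05, and the authors' deposited table also had 0 with a q-value under 0.05; across all 12240 tested genes 1.72% were called. No member's groups were apart, against 20.6% of all tested genes. Vcam1 was at 305, 331 and 238 with WPI and 248, 204 and 260 with Snail, with a log2 difference of -0.29 (95% interval from -0.60 to 0.03, adjusted p = 0.396). Nfkbiz, the gene with the unadjusted p under 0.05, was at 10.4, 14.4 and 17.5 with WPI and 17.0, 27.2 and 21.8 with Snail (0.61, SE 0.21, adjusted p = 0.224). Relb was at 17.7, 14 and 15.8 against 20.1, 15.6 and 15.4. Its 95% interval ran from -0.19 to 0.39, that of Rela from -0.21 to 0.08, that of Nfkb1 from -0.08 to 0.16 and that of Nfkb2 from -0.20 to 0.18. The upper bounds for Relb, Rela and Nfkb2 are below the differences of these genes between untreated spheroids and monolayers, an experiment normalised separately. A link between the experiments was not tested. Nfkbia was at 62.8, 30.0 and 37.6 with WPI and 68.2, 41.2 and 33.7 with Snail, highest in library 1 of each group, and its interval was wide, from -0.59 to 0.86. Icam1 was at 0.82, 0.68 and 1.23 against 0.66, 0.72 and 0.69 and failed the filter. In the pathway lists, read against 1.72% of all tested genes called, 0 of 27 tested regulators were called. The receptor Tlr4 was lower, from 26.4 ± 0.70 to 19.9 ± 1.13 (SD, n = 3; adjusted p = 0.039), Ccl7 higher, from 9.64 ± 1.90 to 16.2 ± 0.83 (SD, n = 3; adjusted p = 0.0438), and the adhesion molecule Ncam1 lower, from 50.7 ± 2.46 to 36.9 ± 0.42 (SD, n = 3; adjusted p = 0.0167).

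The BRCA1 experiment used another mOSE line, and its adhesion genes were at other levels. Icam1 passed the filter here, at 13.6, 21.2 and 10.8 in BRCA1 wt and 28.8, 18.5 and 35.6 in the libraries labelled BRCA1 ko. Vcam1 was at 9.63, 22.8 and 7.05 against 5.51, 4.43 and 7.90. Of 10 tested members limma called 0, where 14.3% of all 12775 tested genes were called (9.04% higher, 5.27% lower); 1 member, Icam1, had an unadjusted p under 0.05. The log2 difference of Icam1 was 0.83 (SE 0.34, adjusted p = 0.115) and that of Vcam1 was -0.90 (SE 0.44, adjusted p = 0.156). The authors' deposited table gave Vcam1 a log2 coefficient of -1.33 with a q-value of 0.0213, the only member there under 0.05, and gave Icam1 0.54 with a q-value of 0.222. No member's groups were apart, whereas the groups were apart for 44.9% of all tested genes. For all genes the median difference was 0.17.

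BRCA1 wt 2 stood apart from wt 1 and 3 for several members. Nfkbia was at 66.7, 30.2 and 104.7 in BRCA1 wt and 29.2, 28.5 and 36.7 in BRCA1 ko, so that wt library 2 lay among the ko values. Relb was at 24.6, 14.4 and 24.7 against 16.8, 12.7 and 15.7, and Tnfaip3 at 0.63, 5.48 and 0.51 against 2.25, 1.71 and 2.39. Without BRCA1 wt 2, 4 members were called and 8420 of the 12775 genes with them: Nfkbia (-1.39, adjusted p = 0.00184) and Relb (-0.69, adjusted p = 0.0127) lower, Tnfaip3 (0.98, adjusted p = 0.00444) and Icam1 (1.08, adjusted p = 0.0126) higher. With wt libraries 1 and 3 left out together, the differences were 0.05 for Nfkbia and -1.06 for Tnfaip3; these are values from a lone wt library and are given without a test. The summed scaled TPM of the wt libraries was 1217650, 796668 and 1810670, against 819962 to 843146 in BRCA1 ko. Rescaling each library to the same sum moved the median of all genes to 0.63, and the signs of Nfkb1, Rela, Relb, Nfkbie and Nfkbiz turned. The other members stayed within wide intervals: Nfkb1 was at 30.8, 37.3 and 24.3 against 21.6, 21.4 and 25.9 (95% interval from -0.96 to 0.17), and Rela at 56.3, 65.7 and 47.6 against 54.8, 47.8 and 54.7 (from -0.60 to 0.40).

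**Figure D4:**
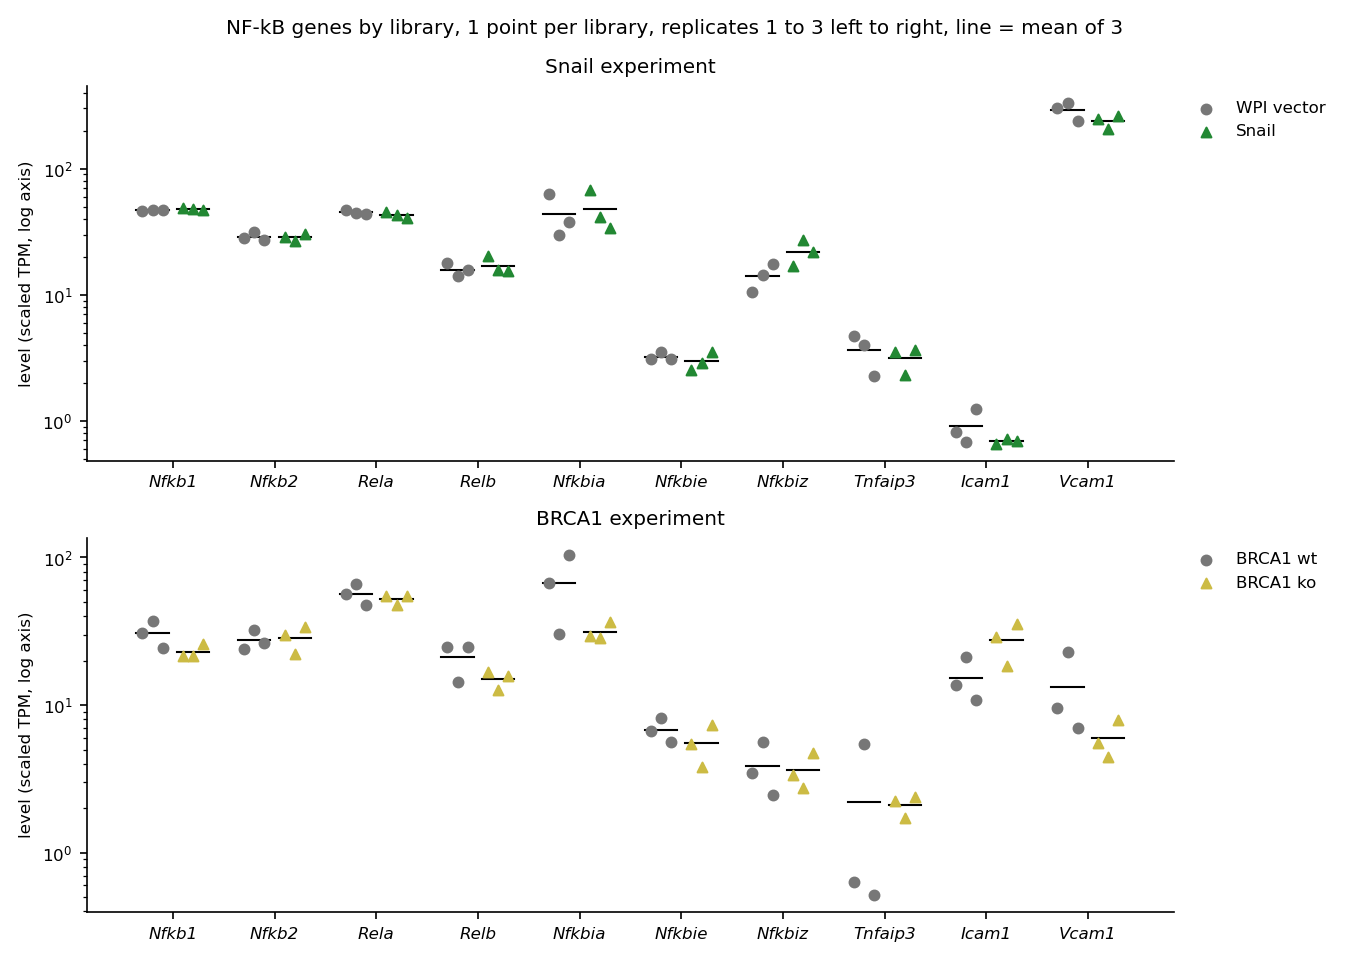
Levels of the 10 genes (y axis, scaled TPM, log axis) in the Snail experiment (top) and the BRCA1 experiment (bottom), with 1 point per library and a line at the mean of 3; the experiments were normalised separately. The groups overlap for every gene, and in the BRCA1 wt group Nfkbia, Relb and Tnfaip3 show library 2 away from libraries 1 and 3.

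The ratio of Vcam1 to Icam1 within a library does not depend on how the library was scaled. It was 353 to 526 in untreated monolayers, 196 to 318 in TGFB1 monolayers, 126 to 250 in untreated spheroids and 51.1 to 159 in TGFB1 spheroids. WPI libraries gave 193 to 489 and Snail libraries 284 to 379. In all these m1102 libraries Icam1 lay at 0.30 to 1.23 and failed the filter, so the size of the ratio rests on a barely detected gene. In the BRCA1 experiment the ratio was 0.71, 1.08 and 0.65 in BRCA1 wt and 0.19, 0.24 and 0.22 in the libraries labelled BRCA1 ko. The BRCA1 groups did not overlap on this ratio, with wt library 2 the highest of the 6. The ratio was chosen after the values were seen and was not tested.

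**Figure D5:**
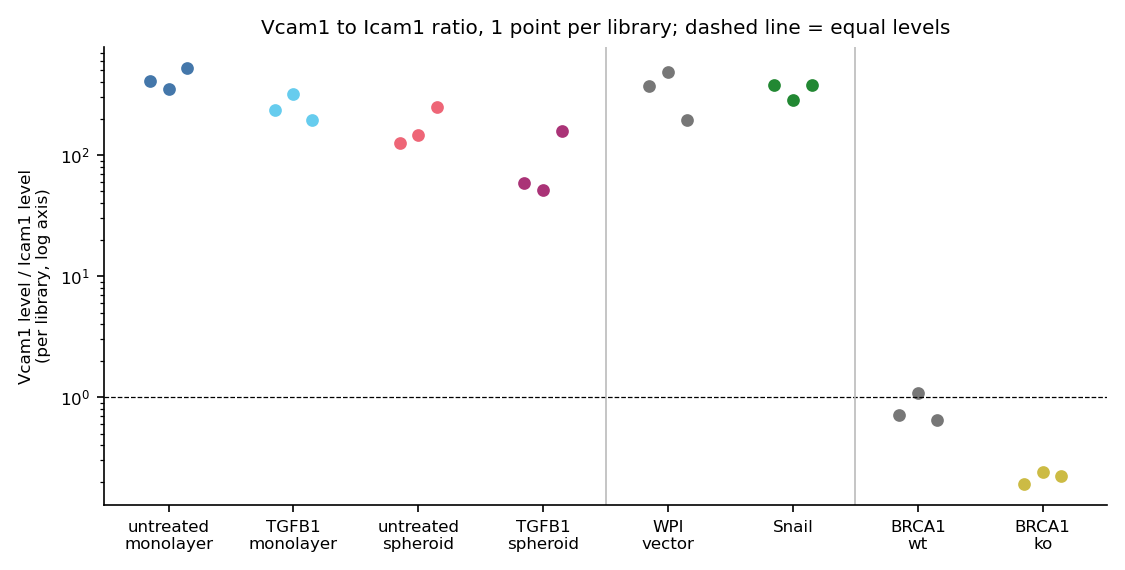
Ratio of the Vcam1 to the Icam1 level in each library (y axis, log axis) for the 8 groups, with 1 point per library, a dashed line at equal levels and grey lines between the 3 experiments. All m1102 libraries, in which Icam1 failed the filter, lie above 51. The BRCA1 ko libraries lie between 0.19 and 0.24, below the BRCA1 wt libraries at 0.65 to 1.08.

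In the BRCA1 experiment, 3 of 28 tested regulators were higher and 4 lower, where 9.04% of all tested genes were higher and 5.27% lower. Bcl3 was lower, from 73.7 ± 23.0 to 28.2 ± 1.92 (SD, n = 3; adjusted p = 0.0297), as was Pdlim2, a ubiquitin ligase for RelA, from 37.6 ± 18.4 to 7.03 ± 2.41 (SD, n = 3; adjusted p = 0.0257). Tab2, an adaptor of the kinase that activates the IkB kinase, was higher, from 34.7 ± 25 to 124 ± 14.9 (SD, n = 3; adjusted p = 0.0359). Of 18 ligands and receptors 2 were higher and 1 lower, among them Irak3, an inhibitor of interleukin 1 signalling, from 1.56 ± 0.55 to 9.53 ± 1.55 (SD, n = 3; adjusted p = 0.00533). Of 17 targets 0 were higher and 1, Gadd45b, was lower, from 98.6 ± 32.8 to 35.4 ± 6.94 (SD, n = 3; adjusted p = 0.0346). Of 10 adhesion relatives 1, the integrin gene Itgax, was higher (1.38, SE 0.17, adjusted p = 0.00533).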

How the data were processed

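The submitters' processing notes name kallisto 0.44.0, sleuth 0.30.0 and build GRCm38. The deposited signal values are scaled TPM per gene: the authors' abundances per transcript length, multiplied by a factor per library, in 3 tables normalised separately. The authors' deposited comparison tables hold p-values and q-values and coefficients on a natural log scale, divided here by the natural log of 2; for the spheroid experiment each p-value covers 3 terms. Genes were located by GENCODE M21 (GRCm38), to which 98.1 to 98.2% of identifiers matched.

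Genes with at least 1 scaled TPM in at least 3 libraries of a table were kept. The log2(scaled TPM + 1) values were fitted with limma 3.58.1 (R 4.3.3; lmFit, contrasts, eBayes with trend), with all 12 libraries of the spheroid experiment in 1 fit, in 7 two-sided comparisons with Benjamini-Hochberg adjustment over all tested genes. The pseudocount understates the change of low genes. The fit was tried on simulated data, drawn as independent normal values per gene with planted changes. Those data held no outlying library and no scaling shift, so they do not cover these features of the libraries. The members, gene lists and tests were chosen with earlier results of these data known. Named list genes are up to 4 per list and comparison, called, with groups apart, by absolute log2 fold change; Traf5 in the spheroid table and Itgam elsewhere stood on 2 rows and were left out of their lists. Nfkbid is in the regulator and the target list. Likeness was ranked over genes tested. Depth is unknown, so no counting intervals are given. Alternatives were another pseudocount, no filter, other scalings, library weights, a replicate block, fits on 6 libraries and leaving out each library. Averaging untreated monolayers 1 and 2, and leaving out BRCA1 wt 1 and 3 together, were chosen after seeing the data.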

Additional observations from a re-analysis of the deposited data

Results flagged for a closer look

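The effect of TGFB1 on 2 members differed between growth forms by a test of the difference itself. For Nfkb1 the log2 effect in spheroids exceeded that in monolayers by 0.64 (SE 0.13, limma adjusted p = 0.00858), with all 3 TGFB1 spheroids above all 3 untreated ones and overlapping values in monolayers. For Nfkb2 the difference was 0.55 (SE 0.12, limma adjusted p = 0.0121), with a lower level in all 3 TGFB1 monolayers and a higher level in all 3 TGFB1 spheroids; the difference in spheroids alone was not called (0.22, adjusted p = 0.071). Both calls were lost with libraries rescaled to equal sums (adjusted p = 0.0568 for Nfkb1 and 0.0847 for Nfkb2). Across all tested genes 15.8% were called in this contrast.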

How the results depend on the processing

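Without each library in turn, members called numbered 7 to 7 and 8 to 9 for spheroid against monolayer untreated and with TGFB1, 2 to 5 and 3 to 5 for TGFB1 in monolayers and spheroids, 2 to 4 for the difference between them, 0 to 0 for Snail and 0 to 4 for BRCA1; calls over all genes ran 6401 to 7839, 6063 to 7521, 1234 to 2818, 3295 to 4944, 1402 to 2741, 23 to 75 and 284 to 8420. Library weights gave 5 members and 4385 genes for the difference between TGFB1 effects, 6431 genes for TGFB1 in monolayers, and 8 members and 11536 genes for BRCA1. Equal sums gave 1 member for the difference between TGFB1 effects, Rela at -0.44, and 818 genes for BRCA1. Fits on the 6 libraries compared gave 3585 genes for TGFB1 in monolayers, and 3 members and 2769 genes in spheroids. Averaging untreated monolayers 1 and 2 gave 2 members and 1331 genes for TGFB1 in monolayers. Without the filter 54 genes were called for Snail and 1091 for BRCA1. Leaving out BRCA1 wt 1 and 3 together gave 627 genes, with the spread taken from the BRCA1 ko group alone and the lone wt library assumed to vary like it. The share of calls that were higher went under equal sums from 52.9 to 29.8% for TGFB1 in spheroids, 48.9 to 33.2% for spheroids with TGFB1, 55.1 to 27.8% for the difference and 63.2 to 79.6% for BRCA1 (53.0% by median ratio), as the median of all genes moved to -0.16, -0.15, -0.21 and 0.63. The cause of these shifts was not tested.

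Same-numbered libraries share only a number, and not every library correlated best with its own number (correlations of their deviations from -0.32 to 0.331 over pairs of groups). With the replicate number as a block, 16 genes were called for Snail and 433 for BRCA1, Rela lost its call for TGFB1 in spheroids (-0.21, adjusted p = 0.0686), and Tnfaip3 lost its call for TGFB1 in monolayers (1.52, adjusted p = 0.0701).

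Signs turned for uncalled values. Nfkb1 in untreated spheroids became 0.050 (equal sums) and 0.013 (median ratio), with -0.11 to 0.069 on leaving out a library. Rela with TGFB1 in monolayers became -0.0084 (median ratio; -0.034 to 0.062). In the difference between TGFB1 effects Nfkbie became 0.0070 (weights; -0.17 to 0.027), and Nfkbia ran from -0.37 to 0.035. For Snail the ranges were -0.058 to 0.052 (Nfkb2), -0.020 to 0.18 (Relb), -0.15 to 0.43 (Nfkbia) and -0.39 to 0.017 (Tnfaip3). For BRCA1 under equal sums Nfkb1 became 0.12, Rela 0.43, Relb 0.074, Nfkbie 0.16 and Nfkbiz 0.34; Nfkb2 became -0.16 by median ratio. Without wt 1 and 3, Nfkb2 became -0.19, Relb 0.053, Nfkbia 0.048 and Tnfaip3 -1.06. Leaving out 1 library gave -0.082 to 0.20 (Nfkb2), -0.21 to 0.016 (Rela), -0.25 to 0.22 (Nfkbiz) and -0.068 to 0.98 (Tnfaip3). The cause was not tested. Depth is unknown, so what a low level such as that of Icam1 can show is limited.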

Other observations

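Ratios to Rela within a library, which do not depend on its scaling, were read after the values were seen and were not tested. Relb stood at 0.32 to 0.36 of the Rela level in untreated monolayers, 0.14 to 0.19 in TGFB1 monolayers, 0.49 to 0.53 in untreated spheroids and 0.44 to 0.55 in TGFB1 spheroids. Nfkbia stood at 0.73 to 0.79, 0.41 to 0.57, 1.08 to 1.15 and 0.65 to 1.06 of Rela in the same groups. The lowest of both ratios were in TGFB1 monolayers. In the BRCA1 experiment Nfkbia stood at 1.19, 0.46 and 2.20 of Rela in BRCA1 wt and at 0.53 to 0.67 in BRCA1 ko, with wt library 2 the lowest of all 6.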
